A study of Mus musculus and Rattus norvegicus with 28 samples.

Results

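The MEF2 transcription factors and the class IIa histone deacetylases (HDACs) that bind them were followed in perinatal mouse cardiomyocytes and in cultured neonatal rat ventricular cardiomyocytes (NRVCs). The 8 genes were taken by the gene name in the deposited transcript files, which list 55450 mouse and 32623 rat genes, and they comprised 4 MEF2 factors (Mef2a, Mef2b, Mef2c and Mef2d) and 4 class IIa HDACs (Hdac4, Hdac5, Hdac7 and Hdac9). All 8 were present in both species, with 110 annotated mouse transcripts and 21 rat transcripts. Open chromatin was read within 50 kb of their mouse transcript starts. The mouse cells came from left ventricles of wild-type C57BL/6 animals at embryonic day 18.5 (E18.5) and postnatal days 1, 3 and 7 (P1, P3 and P7), with 2 RNA-seq and 2 ATAC-seq libraries at each time point. The rat cells came from left ventricles of Sprague Dawley animals at P1 and were treated one day after plating with 100 nM trichostatin A (TSA), an inhibitor of histone deacetylases, or with its solvent DMSO, with 3 RNA-seq libraries per treatment. No allele was modified in any group. Both kinds of cell were released with trypsin and collagenase, and cells that attached to uncoated dishes were discarded to leave the cardiomyocytes. No label ties a library to an animal, litter or culture, so the p-values measure the spread between these libraries, which may in part be technical.

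MEF2 factors bind an AT-rich element in promoters and enhancers of muscle genes and activate contractile, metabolic and stress-response genes in the heart. Class IIa HDACs have little deacetylase activity of their own towards histones. They bind MEF2 through their amino-terminal region, bring the HDAC3 and NCoR corepressor complex to MEF2 sites and hold the targets down. When calcium-dependent kinases or protein kinase D phosphorylate them, 14-3-3 proteins hold them and the exportin Xpo1 carries them out of the nucleus, which frees MEF2. Their activity is therefore set largely by location and phosphorylation, neither of which RNA-seq measures.

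Expression is given as FPKM, in which the fragments of a transcript are scaled to its length in kilobases and to the size of the library, summed over the annotated transcripts of a gene. A gene was called changed when limma on log2(FPKM + 1) gave a Benjamini-Hochberg adjusted p under 0.05 over all tested genes and a log2 fold change beyond 1 in either direction. The pseudocount of 1 makes these fold changes smaller than the ratio of the means for genes of low FPKM. Libraries held 29300000 to 37500000 aligned reads in mouse and 28200000 to 38500000 in rat, a rounded estimate made by dividing coverage by FPKM. The same 2 E18.5 libraries served as reference for each of the 3 postnatal time points, so those 3 comparisons are not independent, and the median log2 fold change of all tested genes against E18.5 at these 3 time points was 0.15, 0.16 and 0.14.

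The cell-type label was checked at the RNA level against lists of marker genes. By staining for the protein cardiac troponin T, the paper reported that the isolated cells were of high purity, also at P7. The summed FPKM of 12 cardiomyocyte markers was 29074 and 37296 at E18.5, then 13207 and 21285 at P1, then 8926 and 7663 at P3 and finally 2151 and 889 at P7, and all 12 markers were called lower at P7 with a median log2 fold change of -4.37. The 9 fibroblast markers summed to 445 and 433 FPKM at E18.5 and to 2927 and 3654 at P7, where all 9 were called higher. The 7 erythroid markers summed to 29046 and 35395 FPKM at E18.5 and to 11.0 and 12 at P7. The cardiomyocyte markers were thus abundant in the E18.5 libraries, beside a large erythroid signal, and their summed level was lower at each later time point without overlap between neighbouring time points. In bulk libraries such as these, fewer cells of a type and less RNA per cell cannot be told apart. The part of these shifts in the values of the 8 genes was not tested.

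Among the MEF2 factors, Mef2d and Mef2a made up nearly all of the summed FPKM, and 3 of the 4 genes were lower at P7 than at E18.5 with an adjusted p under 0.05, beside 22.6% of all tested genes that were lower at that threshold. The 4 genes together summed to 65.1 and 59.99 FPKM at E18.5, 47.8 and 53.9 in the P1 libraries, 38.5 and 41.4 in those of P3 and 30.1 and 26.3 in those of P7. Mef2d held 61.9% and 63.2% of that sum at E18.5 and 65.0% and 58.7% at P7, and its share stayed between 53.4% and 65.0% in all 8 libraries. Mef2a held 29.4% to 40.1% and Mef2c 2.84% to 7.89%.

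Mef2d (chr3:88142372-88172086, plus strand of mm10), a factor expressed in many tissues that is known for its part in stress-dependent remodelling of the heart, was the most abundant member of its family. Its FPKM was 40.3 and 37.9 at E18.5, 25.5 and 29.9 in the P1 libraries, 22.4 and 24.3 in those of P3 and 19.5 and 15.5 in those of P7. Both E18.5 libraries lay above all 6 postnatal libraries. At P7 the mean was 17.5 ± 2.89 (SD, n = 2) against 39.1 ± 1.66 (SD, n = 2), a ratio of 0.447, with a log2 fold change of -1.12 (SE 0.15, adjusted p = 0.000452), and Mef2d was called lower. The log2 fold changes at P1 and P3 were -0.49 (adjusted p = 0.0333) and -0.72 (adjusted p = 0.0053), inside the fold threshold. On the TPM scale the P7 log2 fold change was -0.89 and without P7 replicate 2 it was -0.96, so the call at P7 was lost by the fold threshold in both settings.

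Mef2a (chr7:67231163-67372858, minus strand), the factor whose loss in mice causes cardiac defects soon after birth, kept its level until P1. Its FPKM was 20.4 and 17.7 at E18.5, then 19.2 and 19.6 at P1, then 14.3 and 14.8 at P3 and finally 9.66 and 9.83 at P7. The E18.5 and P1 ranges overlapped, and every P3 and P7 library lay below them. The log2 fold change at P7 was -0.90 (SE 0.13, adjusted p = 0.000652), with a ratio of means of 0.511, and Mef2a was not called because the fold stayed inside the threshold. With median-of-ratios size factors it was -1.07 (adjusted p = 0.000204) and passed. At P3 it was -0.36 (adjusted p = 0.0466).

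Mef2c (chr13:83504034-83667080, plus strand), the factor required for formation of the right ventricle and the early heart tube, had a low level and a larger fall. Its FPKM was 4.12 and 4.16 at E18.5, 3.04 and 4.26 in the P1 libraries, 1.82 and 2.05 in those of P3 and 0.852 and 1.04 in those of P7. The P1 range included both E18.5 values, and the P3 and P7 libraries were all lower than both earlier groups. At P7 the log2 fold change was -1.40 (SE 0.18, adjusted p = 0.000349), with a ratio of means of 0.229, and Mef2c was called lower. At P3 the log2 fold change was -0.81 (adjusted p = 0.00672), which passed the fold threshold with a pseudocount of 0.1 (-1.06).

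Mef2b (chr8:70139711-70167488, plus strand), the member best known from germinal-centre B cells, was at the limit of detection and did not pass the filter on low values. Its FPKM was 0.254 and 0.232 at E18.5, then 0.0614 and 0.239 at P1, then 0.0796 and 0.172 at P3, and both P7 libraries listed it at 0. These values rested on 10 to 11 estimated reads per library at E18.5 and on 3 to 12 at P1, and the P7 and E18.5 libraries did not overlap. Fitted without the filter, the P7 log2 fold change against E18.5 was -0.31 (adjusted p = 0.0326 by limma), a difference that rests on these few reads.

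**Figure D1:**
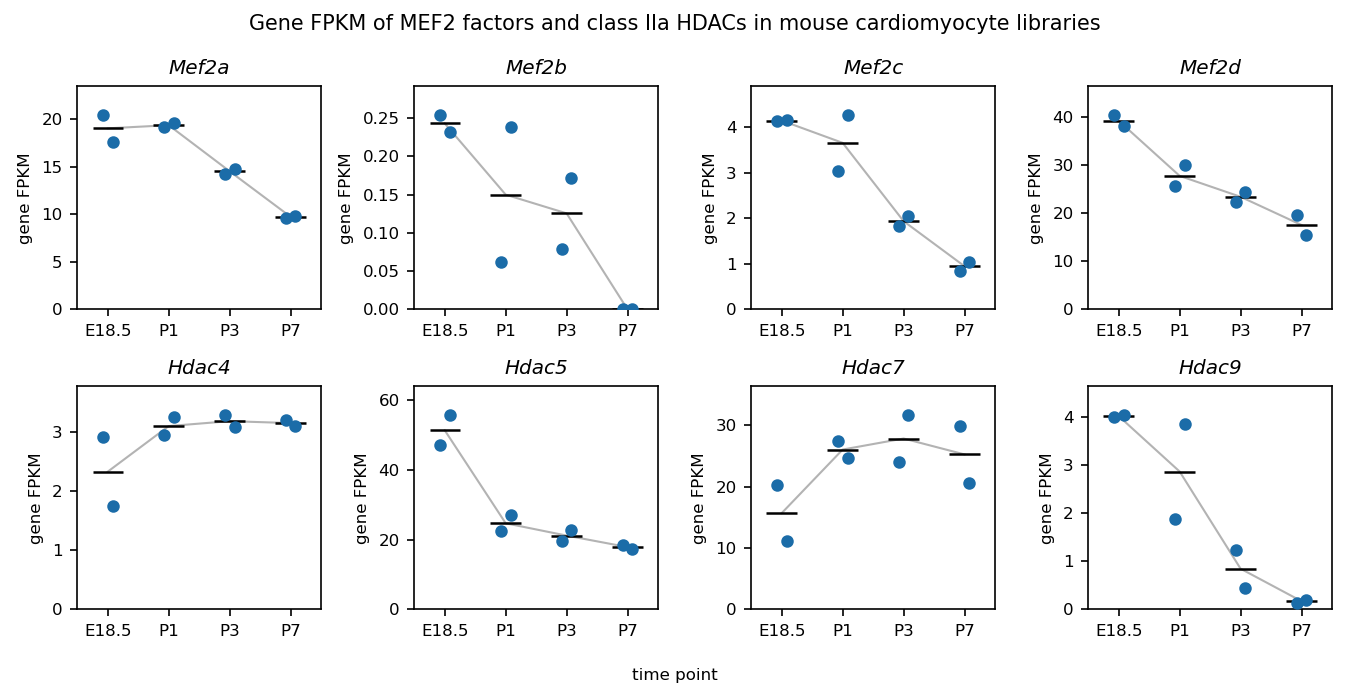
Gene FPKM (vertical axis, linear, from 0) of the 8 genes in the 8 mouse RNA-seq libraries by age, with 1 point per library, a bar at the mean of the 2 libraries and a grey line joining the means. Mef2d, Mef2c and Hdac9 lie lower at P7 than at E18.5 in both libraries, Hdac5 drops between E18.5 and P1, and Mef2b stays under 0.26 FPKM throughout.

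Among the class IIa HDACs, Hdac5 and Hdac9 fell after birth, while the values of Hdac7 and Hdac4 were higher in every postnatal library than in either E18.5 library. The 4 genes summed to 74.1 and 72.5 FPKM at E18.5 and to 51.7 and 41.1 at P7. Hdac5 held 63.4% and 76.7% of the sum at E18.5 and 35.7% and 41.96% at P7, while Hdac7 held 27.3% and 15.3% at E18.5 and 57.8% and 50.02% at P7. The gene with the highest class IIa FPKM was thus Hdac5 in both E18.5 libraries and Hdac7 in both P7 libraries. With protein-coding transcripts only, Hdac7 was above Hdac5 in P7 replicate 1 (19.6 against 15.3 FPKM). In P7 replicate 2 it was below (8.14 against 14.3), so the change at P7 did not hold in both libraries.

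Hdac5 (chr11:102194432-102230166, minus strand), a signal-responsive repressor whose loss in mice sensitises the heart to hypertrophic stimuli, was the only one of the 7 tested members that was called at all 3 postnatal time points. Its FPKM was 46.9 and 55.6 at E18.5, then 22.4 and 26.9 at P1, then 19.5 and 22.7 at P3 and finally 18.5 and 17.2 at P7. No postnatal library reached the lower E18.5 library. The log2 fold changes against E18.5 were -1.03 at P1 (SE 0.15, adjusted p = 0.00147), -1.24 at P3 (adjusted p = 0.000436) and -1.47 at P7 (adjusted p = 0.000122). The call at P1 stood just past the fold threshold and was lost without E18.5 replicate 2 (-0.91), without P1 replicate 1 (-0.90) and on the TPM scale (-0.81). With only transcripts annotated as protein-coding, a setting added after the values were seen, the log2 fold changes were -0.38, -0.68 and -0.79 (adjusted p = 0.404, 0.137 and 0.0868), and no call remained at any time point. Transcripts of that type gave 36.0% of the Hdac5 FPKM in E18.5 replicate 1 and 73.0% in E18.5 replicate 2, against 69.5% to 84.3% in the 6 postnatal libraries.

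Hdac9 (chr12:34047580-34917095, minus strand), whose short form MITR binds MEF2 and lacks the deacetylase domain, showed the largest ratio between E18.5 and P7 among the 7 tested members. Its FPKM was 3.99 and 4.03 at E18.5, 1.87 and 3.85 in the P1 libraries, 1.24 and 0.450 in those of P3 and 0.141 and 0.199 in those of P7. The ranges of the 4 time points did not overlap. The E18.5 mean was 23.6 times the P7 mean, with a log2 fold change of -2.10 (SE 0.29, adjusted p = 0.000485), and the P3 log2 fold change was -1.48 (adjusted p = 0.0037). Between 34 and 53 estimated reads per library supported the P7 level. Across the alternative settings the P7 log2 fold change ran from -3.94 to -2.06.

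Hdac7 (chr15:97792664-97844502, minus strand), a class IIa HDAC with a known role in the integrity of vessels, had 20.2 and 11.1 FPKM at E18.5, then 27.4 and 24.7 at P1, then 24.01 and 31.6 at P3 and finally 29.9 and 20.5 at P7. The 2 E18.5 libraries differed by more than did their Mef2d or Hdac9 values, and the lowest P7 library lay just above the highest E18.5 library. The log2 fold changes were 0.75 at P1 (adjusted p = 0.0664), 0.83 at P3 (adjusted p = 0.0406) and 0.69 at P7 (adjusted p = 0.0716), and Hdac7 was not called. Without E18.5 replicate 1 they were 1.16, 1.24 and 1.09 and passed both thresholds, and without E18.5 replicate 2 they were 0.34, 0.43 and 0.28 (adjusted p = 0.34, 0.229 and 0.397). With protein-coding transcripts only they were 0.94, 0.13 and 1.10 (adjusted p = 0.222, 0.866 and 0.142). The size of the difference thus depended on which E18.5 library was used. The 9 endothelial markers summed to 451 and 262 FPKM at E18.5 and to 430 and 388 at P1. They summed to 632 and 711 at P3 and to 537 and 447 at P7. Within each of the 4 time points the library with the higher endothelial sum had the higher Hdac7 FPKM. The cardiomyocyte sums had the opposite order to Hdac7 at E18.5, P1 and P3 and the same order at P7. Against E18.5 the median log2 fold change of the endothelial markers was -0.48 at P1 (1 called higher and 2 lower), 0.35 at P3 and 0.08 at P7. The part of endothelial RNA in the Hdac7 values was not tested.

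Hdac4 (chr1:91928779-92195699, minus strand), a repressor controlled by calcium/calmodulin-dependent kinase II in the heart, had 2.91 and 1.75 FPKM at E18.5, then 2.94 and 3.26 at P1, then 3.28 and 3.08 at P3 and finally 3.21 and 3.09 at P7. The 6 postnatal libraries were close together, and the gap between them and the higher E18.5 library was small. The log2 fold change at P7 was 0.34 (SE 0.20, 95% interval -0.11 to 0.79, adjusted p = 0.172), and Hdac4 was not called. Without E18.5 replicate 1 it was 0.59 (adjusted p = 0.0229) and without E18.5 replicate 2 it was 0.086 (adjusted p = 0.678). With protein-coding transcripts only it was 0.93 (adjusted p = 0.00195), inside the fold threshold. Estimated reads gave another picture: 241 and 300 bounded the E18.5 libraries, against 642 to 845 at P1 and 667 to 725 at P7. Limma-voom on those reads gave log2 fold changes of 1.23, 1.297 and 1.23 (adjusted p = 0.00222, 0.00125 and 0.0012) and called Hdac4 higher at the 3 postnatal time points. The E18.5 FPKM of this gene held a smaller part from its main coding form, Hdac4-202, than the later values. Estimated reads, unlike FPKM, are not divided by the length of the assigned form, which is 8100 bp for Hdac4-202 and 3287 bp for Hdac4-208. The part of this length in the limma-voom result was not tested.

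Counted together, 1 of the 7 tested members was called at P1, beside 16.2% of all 13979 tested genes. At P3 2 of 7 were called, beside 21.9% of all genes, and at P7 4 of 7 were called, beside 27.7%. All of these member calls were lower, against 6.06%, 8.88% and 12.3% of all genes called lower at the respective time points. The libraries of the groups did not overlap for 5 of the 8 members at P1, beside 69.6% of tested genes, and for 8 of 8 at P3 and at P7, beside 74.8% and 78.3%. Between postnatal days, P7 against P1 called 2 of 7 members, beside 8.91% of all genes, namely Hdac9 (-1.67, adjusted p = 0.00578) and Mef2c (-1.25, adjusted p = 0.00279). P3 against P1 called 0 of 7, beside 0.0143% of all genes, and P7 against P3 called 0 of 7, beside 3.55%. In each of those last comparisons limma gave an unadjusted p under 0.05 for 3 of the 7, beside 11.3% and 18.5% of all genes.

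**Figure D2:**
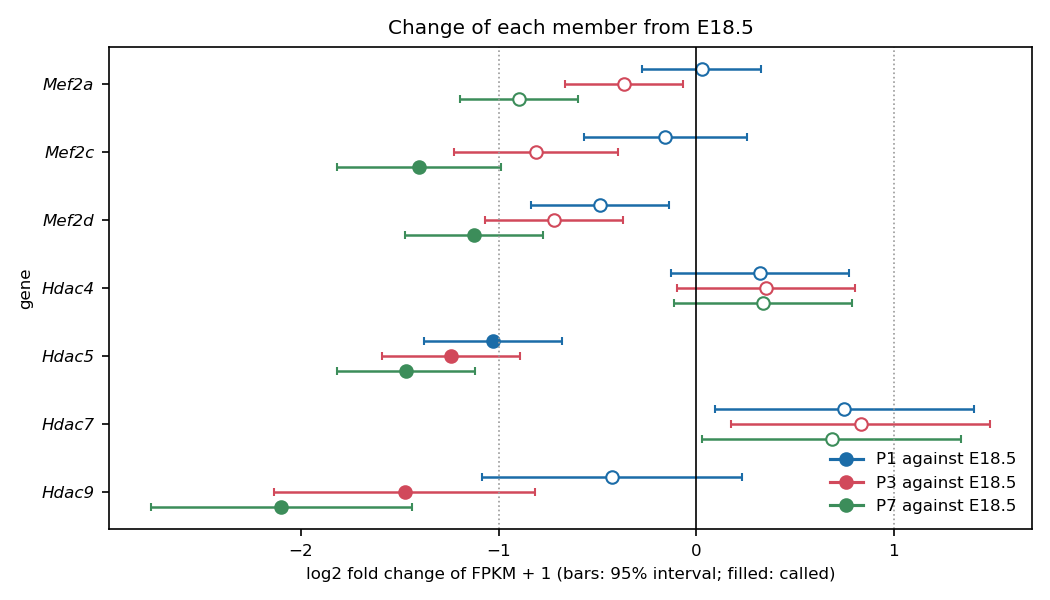
Log2 fold change of FPKM + 1 (horizontal axis) of the 7 tested genes at P1, P3 and P7 against E18.5, with points at the limma estimate, bars for the 95% interval, filled points for called genes and dotted lines at a log2 fold change of 1 in each direction. Hdac5 is filled at all 3 time points, Hdac9 at P3 and P7, and Mef2c and Mef2d at P7, all to the left of 0, while Hdac4 and Hdac7 lie to the right.

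The order of the members by FPKM changed with age. At E18.5 Hdac5 (46.9 to 55.6) stood above Mef2d (37.9 to 40.3) without overlap, and Mef2a and Hdac7 followed with overlapping ranges. At P1 Mef2d, Hdac7 and Hdac5 could not be ordered beyond their spread. Hdac7 (20.5 to 29.9) stood first at P7, above Hdac5 and Mef2d, whose ranges overlapped, with Mef2a (9.66 to 9.83) next. Hdac4, at position 7 at E18.5, stood above Mef2c and Hdac9 at P3 and P7 without overlap. These orders rest on all annotated transcripts. With protein-coding transcripts only, Hdac5 was below Mef2d in E18.5 replicate 1 (16.9 against 35.7) and above it in replicate 2 (40.6 against 35.1). At P7 the coding values of Hdac7 (19.6 and 8.14) overlapped those of Hdac5 (15.3 and 14.3) and Mef2d (17.0 and 13.3).

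Short exons of Mef2a and Mef2d were read from the exon coverage in the transcript files. Each gene has a small alternative exon near its activation domain, called the beta exon, that adds acidic residues and is known to be included mainly in muscle and brain. The exons are shown for their coverage relative to a neighbouring exon, which is given by library below. They are 24 bp long in Mef2a and 21 bp long in Mef2d, printed in capitals with 30 bases of intron on each side, on the coding strand of mm10.
Mef2a chr7:67244491-67244574: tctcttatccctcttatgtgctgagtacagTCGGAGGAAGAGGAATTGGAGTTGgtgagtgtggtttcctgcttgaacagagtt
Mef2d chr3:88161751-88161831: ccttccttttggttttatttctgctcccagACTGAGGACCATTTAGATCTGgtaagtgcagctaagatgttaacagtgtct

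The Mef2a exon (chr7:67244521-67244544) had a coverage of 40.5% and 47.3% of its neighbouring exon at E18.5, 45.6% and 60.1% in the P1 libraries, 31.7% and 27.8% in those of P3 and 29.9% and 12.6% in those of P7. For the Mef2d exon (chr3:88161781-88161801) the values were 21.4% and 27.2% at E18.5, then 40.2% and 43.4% at P1, then 22.6% and 17.3% at P3 and finally 6.18% and 4.92% at P7. In both exons the highest value was that of P1 replicate 2 and the lowest that of P7 replicate 2. Mean coverage of the Mef2d exon was 30.8 and 47.2 at E18.5 and 5.05 and 4.62 at P7. For the Mef2a exon the E18.5 range overlapped that of P1, and the P3 range that of P7. For the Mef2d exon the E18.5 range overlapped that of P3. These exons were chosen after their values had been seen, and no test was made. All 12 cardiomyocyte markers were called lower at P7, and the part of that shift in the exon values was not tested.

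Transcript shares were compared next, with the FPKM of a transcript divided by that of its gene. Of 29 mouse transcripts of members that entered the fit, 0 were called at P1, P3 or P7, beside 0.486%, 0.543% and 1.35% of all transcripts tested, and limma gave an unadjusted p under 0.05 for 4, 3 and 9 of them, beside 11.1%, 12.7% and 16% of all transcripts. StringTie divides reads among overlapping models, and shares of transcripts with few reads varied widely between replicates, so the forms below are described by library.

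In Hdac9 the most abundant form changed. The short transcript Hdac9-201 (chr12:34371497-34528874, 588 coding codons) had 2.74 and 2.92 FPKM at E18.5, 1.29 and 2.79 in the P1 libraries, 0.902 and 0.0652 in those of P3, and was listed at 0 in both P7 libraries. The long transcript Hdac9-205 (chr12:34047580-34528328, 1064 coding codons) had 0.351 and 0.200 FPKM at E18.5 and 0.122 and 0.174 at P7. The short form held 68.6% and 72.5% of the Hdac9 FPKM at E18.5, and the long form held 86.4% and 87.5% at P7. P3 replicate 1 resembled the earlier libraries with 72.8% short form, and P3 replicate 2 the later ones with 14.5%. The share of Hdac9-201 at P7 had an adjusted p of 0.0936 and was not called.

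In Hdac4 both E18.5 libraries differed from the postnatal ones in transcript makeup, and in Hdac5 E18.5 replicate 1 differed most. Hdac4-202, with 1076 coding codons, held 8.94% and 51.1% of the Hdac4 FPKM at E18.5 and 67.4% to 80.3% in the postnatal libraries. The non-coding Hdac4-208 held 52.5% and 18.6% at E18.5 and was listed at 0 in all 6 postnatal libraries. In Hdac5, Hdac5-205, annotated as a target of nonsense-mediated decay, held 22.04% and 3.97% at E18.5 and 0.968% to 12.2% in the postnatal libraries. The retained-intron Hdac5-216 held 20.7% and 7.97% at E18.5 and 0.786% to 6.54% later. E18.5 replicate 2, which had the highest Hdac5 FPKM, lay inside the postnatal range for Hdac5-205 and for the protein-coding share. For Hdac5-216 it lay above that range. E18.5 replicate 1 therefore carried the largest share of transcripts not annotated as protein-coding in Hdac4 and in Hdac5. Hdac7 had such a form at every age, since the retained-intron Hdac7-213 held between 17.4% and 75.9% of its FPKM over the 8 libraries, with no order by age.

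In Mef2a and Mef2d the same form led in all 8 libraries. Mef2a-208, with 498 coding codons, held 67.1% to 79.9% of the Mef2a FPKM in all 8 libraries. Mef2d-201 held 68.7% and 72.7% at E18.5 and 62.0% and 55.5% at P7, while Mef2d-204 held 13.1% and 11.7% at E18.5 and 20.5% and 23.5% at P7, with no overlap between these groups for either form (adjusted p = 0.407 and 0.245 at P7). Mef2c-227, with 434 coding codons, was the leading Mef2c form in 7 of 8 libraries with shares from 25.1% to 70.8%.

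**Figure D3:**
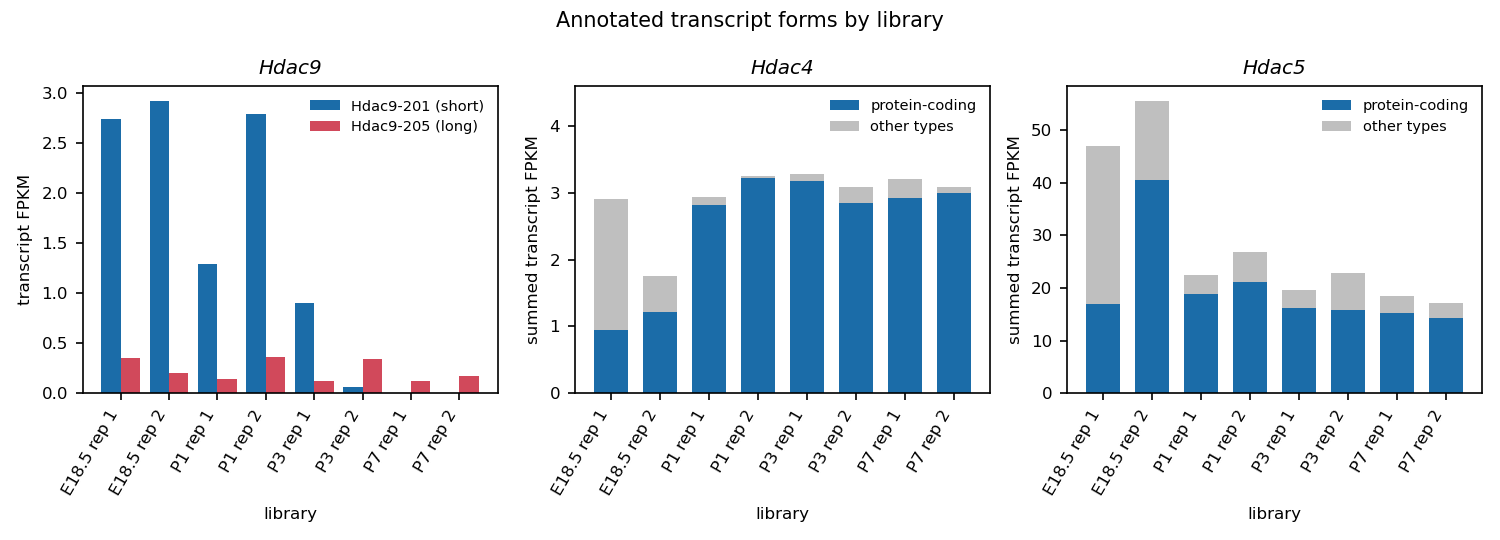
FPKM of annotated transcript forms (vertical axes, linear, from 0) in each mouse library: Hdac9-201 and Hdac9-205 side by side, and protein-coding against other transcripts stacked for Hdac4 and Hdac5. Hdac9-201 declines to 0 at P7 while Hdac9-205 remains under 0.4 FPKM, and the grey part of the Hdac4 and Hdac5 bars is largest in E18.5 replicate 1.

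Open chromatin was compared as peak lists. Peaks of the 8 ATAC-seq libraries were merged where they overlapped, and 63439 regions with a peak in at least 2 libraries were kept, of which 88 lay within 50 kb of a transcript start of a member. Of these, 21 lay within 2.5 kb of a start and 67 farther away. Hdac7 had 20 regions, Hdac5 14, Mef2d and Hdac4 12 each, Mef2c 10, Mef2b 9, Mef2a 7 and Hdac9 4. The nearest coding start was that of the member itself for 60 of the 88 regions. A peak was present in all 8 libraries at 9 of the 88 regions (10.2%), beside 8.57% of all kept regions.

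Regions with a match to the MEF2 consensus, a run of 10 bases searched on both strands in the 300 bases around each region's midpoint, are shown because they place the binding letters of the family within its own loci. The 6 windows below have 120 bases each, read from the plus strand of mm10 (GRCm38.p6), in order of the number of libraries with a peak, and capitals mark the matches. The consensus can share letters with the TATA box motif TATAAA.
Mef2c chr13:83565939-83566058: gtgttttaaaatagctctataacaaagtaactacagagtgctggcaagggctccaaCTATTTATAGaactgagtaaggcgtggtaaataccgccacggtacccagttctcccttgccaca
Hdac5 chr11:102230127-102230246: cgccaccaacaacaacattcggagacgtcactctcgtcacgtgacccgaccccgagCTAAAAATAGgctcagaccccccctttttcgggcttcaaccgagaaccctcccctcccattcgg
Hdac7 chr15:97825220-97825339: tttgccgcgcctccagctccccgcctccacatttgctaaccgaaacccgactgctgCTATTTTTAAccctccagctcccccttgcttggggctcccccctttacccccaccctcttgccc
Hdac5 chr11:102218927-102219046: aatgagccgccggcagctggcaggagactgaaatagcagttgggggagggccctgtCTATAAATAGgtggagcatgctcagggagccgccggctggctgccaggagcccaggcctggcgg
Hdac7 chr15:97812295-97812414: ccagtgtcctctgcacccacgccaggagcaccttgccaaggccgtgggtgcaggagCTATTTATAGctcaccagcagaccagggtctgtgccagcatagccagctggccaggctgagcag
Hdac4 chr1:92075542-92075661: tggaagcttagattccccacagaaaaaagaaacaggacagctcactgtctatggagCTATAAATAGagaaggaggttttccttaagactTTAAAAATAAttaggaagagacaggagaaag

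The first lies in an intron of Mef2c and had a peak in all 8 libraries, with a fold enrichment of 5.79 and 5.82 at E18.5, 9.32 and 6.87 in the P1 libraries, 11.8 and 9.35 in those of P3 and 7.36 and 3.61 in those of P7. The first Hdac5 window sits 25 bp from a transcript start and the second 40 bp from another, and each had a peak in 7 libraries. The Hdac7 windows lie in introns with peaks in 7 and 5 libraries, and the Hdac4 window, with 2 matches, lies in an intron with peaks in 4. In all, 8 of 88 regions (9.09%) held a match, beside 1921 of 63285 searched regions (3.04%). Only the letters were matched, and a match does not show that a factor is bound.

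RefSeq promoter sequences, from 250 bases before to 50 bases after a start, were on file for all 8 members in 14 entries, and 2 of these held a match, beside 1047 of 32851 promoters (3.19%). Those were the promoters of Hdac5, at the first window above, and of Mef2a, whose own match overlaps the annotated start. The Mef2a promoter is printed because it lies within a region open in all 8 libraries, on the minus strand of GRCm38.p6 with the match in capitals.
Mef2a chr7:67372809-67373108: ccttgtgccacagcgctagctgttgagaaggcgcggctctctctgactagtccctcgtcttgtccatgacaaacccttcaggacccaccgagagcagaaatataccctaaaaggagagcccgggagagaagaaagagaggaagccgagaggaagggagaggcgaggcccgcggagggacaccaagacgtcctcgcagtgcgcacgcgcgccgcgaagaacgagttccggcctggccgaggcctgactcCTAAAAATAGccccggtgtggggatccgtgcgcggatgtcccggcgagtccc

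Promoter peaks, meaning a peak within 2.5 kb of a member's transcript start, were counted per library. They were found for 5 and 7 of the 8 members at E18.5, beside 66.9% and 62.3% of tested genes, and for 7 and 5 at P1, beside 69% and 42.9%. At P3 the counts were 8 and 7, beside 91.5% and 87.4%, and at P7 8 and 8, beside 86.3% and 85.3%. List length differed between libraries, with 13149 and 14910 peaks for E18.5, 29281 and 19753 for P1, 95257 and 52040 for P3 and 49113 and 35898 for P7. With lists cut to the 13149 highest peaks each the counts were 5, 7, 6, 3, 2, 4, 5 and 5 in the same order. The shares of tested genes beside them were 66.89%, 58.62%, 48.67%, 35.3%, 40.28%, 52.2%, 48.29% and 63.75%.

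Among individual promoters, the region at the start of Hdac4 (chr1:92180191-92181158) had a peak in all 8 libraries, with a fold enrichment of 10.7 and 8.29 at E18.5, then 8.31 and 5.55 at P1, then 9.88 and 12.8 at P3 and finally 8.64 and 8.84 at P7. The Mef2a promoter region (chr7:67372628-67373677) also had a peak in all 8, from 5.36 to 9.96. A promoter peak near Mef2b (chr8:70138934-70140152) was present in all 8 libraries although its mRNA was near 0, and the closest coding start to that region is that of Borcs8. Another region (chr8:70152467-70152942) lies 74 bp from a start of Mef2b, which is its closest coding gene, and had a peak in 7 libraries. The region at the start of the main Hdac9 transcripts (chr12:34528756-34529425) had a peak in 5 libraries, among them both P7 libraries with a fold enrichment of 3.30 and 3.85, where the gene's FPKM was lowest. The Mef2c region at chr13:83523642-83524924 had a peak in 1 of 2 libraries at E18.5, neither at P1, and both at P3 and P7.

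Gain and loss of regions were counted as a peak in both libraries of one time point and in neither of the other. At P1 1 of 88 regions was gained, beside 6.16% of all kept regions, and 1 was lost, beside 1.47%. At P3 50 were gained (56.8%), beside 55.9% of all regions, and 0 were lost, beside 0.186%. At P7 18 were gained (20.5%), beside 23.4%, and 0 were lost, beside 0.158%. With equal numbers of peaks per library 28 regions remained near members, of which 1 was gained and 5 lost at P1, beside 6.36% and 11.5% of all regions, 4 were gained and 6 lost at P3, beside 17.8% and 10.8%, and 2 were gained and 3 lost at P7, beside 9.22% and 5.49%. The gained shares near the members at P3 and P7 were close to the shares of all regions, while the list lengths differed as given above.

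The 1 region gained at P1 lies in an intron of Hdac4 (chr1:92130180-92130980), had no peak in either E18.5 library and had a fold enrichment of 9.88 and 4.85 in the P1 libraries, 10.2 and 13.1 in those of P3 and 9.22 and 7.38 in those of P7. The 1 region lost at P1 lies in an intron of Mef2d (chr3:88148997-88149546), with 4.35 and 3.40 at E18.5 and peaks again in both P3 libraries and 1 P7 library. Peak lists hold no value where no peak was called, so the absence of a peak does not show closed chromatin.

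**Figure D4:**
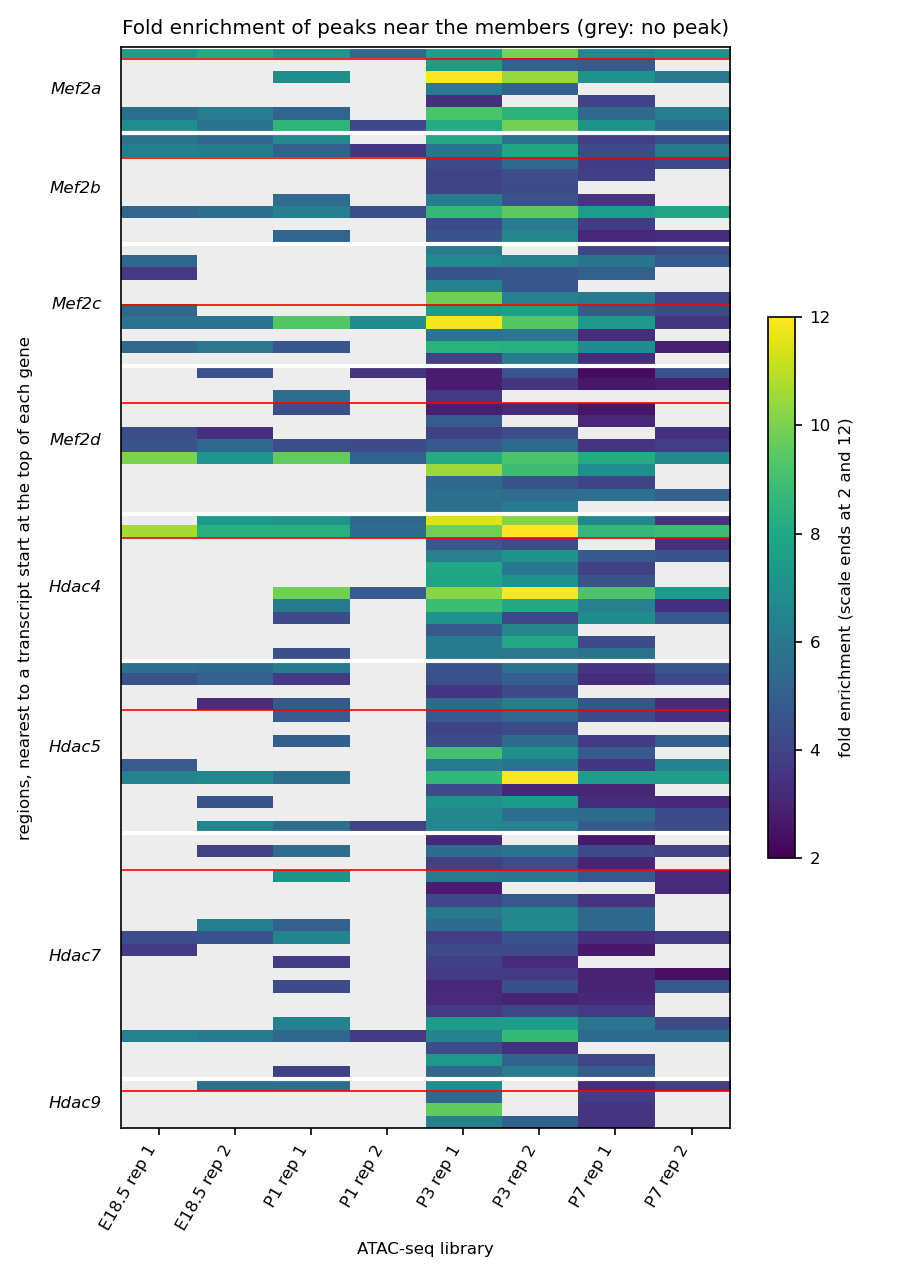
Fold enrichment over background given by the peak caller (colour, with ends set at 2 and 12) for the 88 regions near the 8 genes (rows, grouped by gene and ordered by distance to the nearest transcript start, with a red line at 2.5 kb) in the 8 ATAC-seq libraries (columns), grey where no peak was called. The P3 columns are filled in 88 and 79 of the 88 rows, and the column of P1 replicate 2 in 13.

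Genes that work with the MEF2 and HDAC pair were described by lists. Of the 20 known MEF2 target genes of muscle, 10 were called lower at P1, 14 by P3 and 18 by P7, and 0 were called higher, with a median log2 fold change of -3.60 at P7. Ckm, the muscle creatine kinase, fell from 1215 and 1566 FPKM at E18.5 to 6.89 and 1.498 at P7 (log2 fold change -8.28). Myh7, the slow beta myosin heavy chain, fell from 1620 and 2078 to 7.51 and 5.20 (-7.98), and Myoz2, a calcineurin-binding protein of the Z disc, from 231 and 292 to 12.7 and 4.58 (-4.90). The share of all genes called lower is given above, 12.3% at P7. The 12 cardiomyocyte markers, which share Myh6 and Myh7 with the target list, had a median of -4.37 in the same comparison. Their part in these falls was not tested.

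Partner factors and coactivators had 0 called higher and 5 called lower of 15 tested at P7, beside 12.3% of all genes called lower. Their median log2 fold change was -0.73. Nkx2-5, a homeobox factor of cardiac cells, fell from 93.1 and 109 FPKM to 13.6 and 5.23 (-3.41). Smyd1, a muscle methyltransferase, fell by 3.40 on the log2 scale, and Hand1, a ventricular bHLH factor, fell by 2.23. The 12 cardiomyocyte markers had a median of -4.37 in the same comparison, and the part of that shift in these falls was not tested. Upstream kinases and phosphatases had 1 called higher, beside 15.4% of all genes, and 4 called lower of 21, beside 12.3%, with a median of 0.11. Mapk14, the p38 kinase that phosphorylates MEF2, rose from 5.30 and 5.31 FPKM to 24.7 and 24.1 (2.01, adjusted p = 2.28e-05). Among the 4 that fell were Camk2a (-2.75), a CaM kinase II of brain and muscle, Rcan1 (-1.55), a calcineurin regulator and target, and Camk2d (-1.42), the main cardiac CaM kinase II.

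Of the 8 export and 14-3-3 genes, Xpo1 (1.09) and Ywhab (1.01) were called higher at P7 and Sfn (-1.42) lower. Of all tested genes 15.4% were called higher and 12.3% lower at P7. Among corepressor genes, Tbl1xr1 (1.33), a part of the NCoR complex, was called higher at P7.

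For each tested member the 2 genes with the most similar profile over the 8 mouse libraries were listed, with Pearson's r on log2(FPKM + 1) as a description over time points that share their libraries. They were Natd1 and Atp5k for Mef2d (r = 0.994 and 0.991), Phf20l1 and Sorbs2 for Mef2a (0.990 and 0.987), Gm16793 and Pkp4 for Mef2c (0.992 for both), Fam13a and 2010015M23Rik for Hdac5 (0.998 and 0.995), Slc16a1 and Gm5860 for Hdac9 (0.988 and 0.987), Cdc42bpa and Ess2 for Hdac7 (0.987 and 0.980), and Jagn1 and Gabpb2 for Hdac4 (0.986 and 0.984).

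In the rat cultures TSA was compared with DMSO to ask whether inhibition of deacetylase activity came with a change in expression of the genes themselves. None of the 7 tested members was called (0 of 7), beside 2.13% of all 13625 tested genes, and limma gave an unadjusted p under 0.05 for 1 of the 7, beside 19.8% of all genes. The 3 TSA libraries did not overlap the 3 DMSO libraries for 1 of the 8 members, Hdac7, beside 27.2% of tested genes.

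Hdac7 was the member with the largest difference. Its FPKM was 24.3, 25.1 and 23.4 with DMSO and 17.9, 17.8 and 15.5 with TSA, and every TSA library lay below every DMSO library. The means were 24.3 ± 0.857 (SD, n = 3) and 17.1 ± 1.35 (SD, n = 3), a ratio of 0.705. The log2 fold change was -0.48 (SE 0.10, 95% interval -0.72 to -0.25, adjusted p = 0.0513 by limma), just short of the adjusted threshold and inside the fold threshold. A two-sided exact permutation test over the 20 splits gave p = 0.1, the smallest that 3 libraries against 3 can give. Over the alternatives the adjusted p ran from 0.0242 to 0.175 and the log2 fold change from -0.57 to -0.42. The macrophage markers summed to 1015, 1031 and 489 FPKM with DMSO and to 541, 461 and 406 with TSA, and the endothelial markers to 65.1 to 82.3 and 71.8 to 82.6. The cardiomyocyte markers summed to 13729, 14607 and 18231 with DMSO and to 13935, 12373 and 25837 with TSA. The fibroblast markers summed to 6409, 6956 and 6726 with DMSO and to 5992, 5686 and 3585 with TSA, so that their groups were apart in the same direction as those of Hdac7, while the macrophage sums overlapped. The part of fibroblast or macrophage RNA in the Hdac7 values was not tested.

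The ranges of the MEF2 factors overlapped between treatments. Mef2a had 83.0, 81.3 and 63.8 FPKM with DMSO and 84.6, 89.6 and 80.6 with TSA (log2 fold change 0.17, 95% interval -0.13 to 0.46, adjusted p = 0.521). Mef2d had 51.8, 51.2 and 40.7 against 44.7, 48.7 and 45.2 (-0.04, 95% interval -0.33 to 0.24, adjusted p = 0.882), and Mef2c had 10.7, 11.9 and 8.01 against 11.5, 10.8 and 9.78 (0.07, 95% interval -0.30 to 0.45, adjusted p = 0.847). In each of these genes DMSO replicate 3 held the lowest value of all 6 libraries. These intervals lie inside the fold threshold and include changes of either sign, and equality is not shown. Mef2b stayed at 0.130 to 0.464 FPKM on 6 to 21 estimated reads and did not pass the filter. Fitted without the filter its log2 fold change was 0.10 (adjusted p = 0.674 by limma).

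The other HDACs overlapped as well. Hdac5 had 48.6, 42.6 and 35.7 FPKM with DMSO and 37.3, 42.2 and 37.0 with TSA (-0.11, 95% interval -0.43 to 0.20, adjusted p = 0.706). Hdac4 had 5.63, 5.49 and 4.82 against 4.47, 5.37 and 3.75 (-0.20, 95% interval -0.55 to 0.16, adjusted p = 0.523), and Hdac9 had 5.54, 4.99 and 2.94 against 4.07, 4.56 and 4.52 (0.0046, 95% interval -0.49 to 0.50, adjusted p = 0.992). None of these 3 genes was shown to differ or to be equal. Within the 3 same-numbered pairs of libraries, TSA was the higher for Mef2a in 3 of 3 and the lower for Hdac4 and Hdac7 in 3 of 3, while the other members had pairs in both directions. No label states that same-numbered libraries are pairs. If they are taken as pairs, a two-sided exact permutation test gave p = 0.25 for Mef2a, Hdac4 and Hdac7, the smallest that 3 pairs allow. With the replicate block limma gave adjusted p = 0.334 for Mef2a, 0.36 for Hdac4 and 0.0501 for Hdac7.

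**Figure D5:**
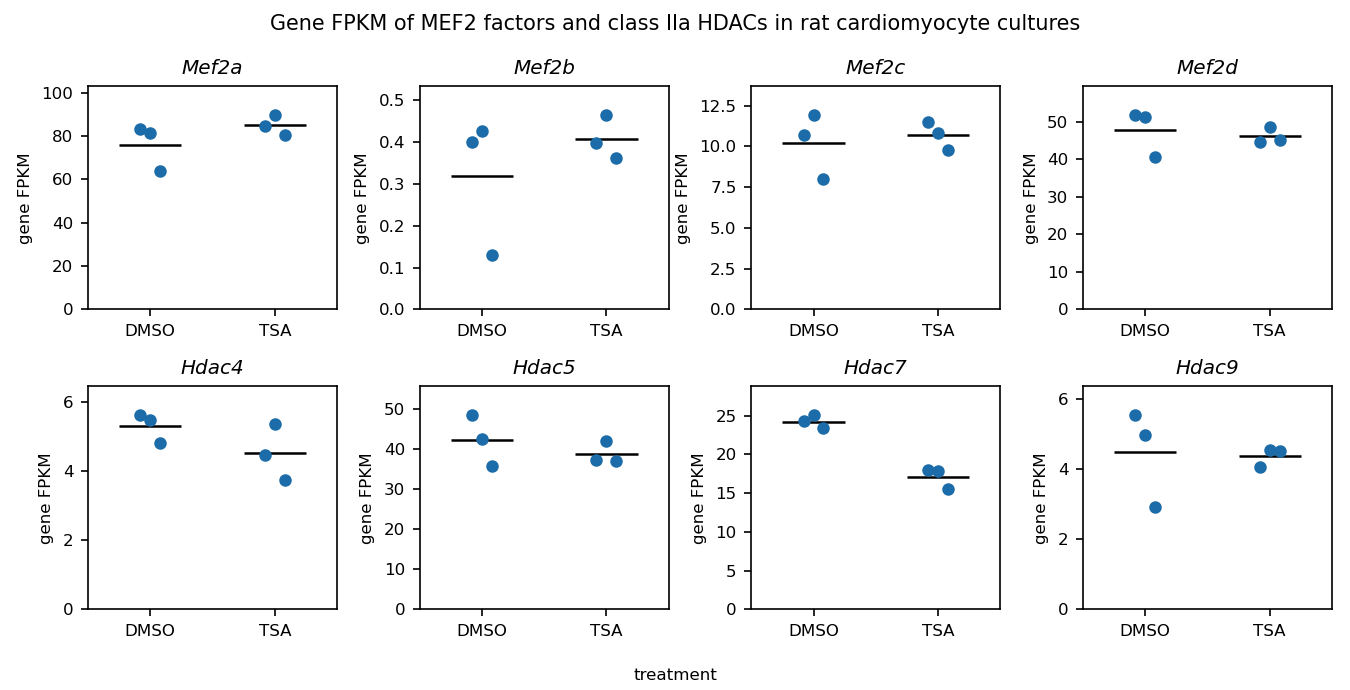
Gene FPKM (vertical axis, linear, from 0) of the 8 genes in rat cardiomyocyte cultures with DMSO or TSA, with 1 point per library and a bar at the mean of 3 libraries. The treatments are apart in Hdac7 (23.4 to 25.1 against 15.5 to 17.9) and overlap in the other 7 genes.

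By mean FPKM the order of the members in the rat cultures was the same with both treatments, from Mef2a (63.8 to 83.0 with DMSO) through Mef2d, Hdac5, Hdac7, Mef2c, Hdac4 and Hdac9 to Mef2b. The ranges of Hdac4 and Hdac9 overlapped with both treatments, and those of Mef2d and Hdac5 overlapped with DMSO. Mef2a held 56.1% to 59.9% of the summed MEF2 FPKM in all 6 libraries, and Hdac5 53.4% to 60.9% of the summed class IIa FPKM. The 2 species were processed with separate annotations and the rat cells had been cultured, so levels were not compared between them. Of the 6 rat transcripts whose shares entered the fit 0 were called by limma, beside 0.515% of all transcripts tested, and 0 had an unadjusted p under 0.05, beside 5.87%. Mef2a has 4 annotated rat transcripts, of which 2 entered this fit, and the more abundant of these held 71.4% to 79.6% of the Mef2a FPKM. Of the rat pathway genes, Camk1g, a calcium/calmodulin-dependent kinase, was called higher, with 2.28, 2.26 and 2.09 FPKM with DMSO and 7.57, 7.89 and 15.2 with TSA (log2 fold change 1.74, adjusted p = 0.019). The 20 MEF2 targets had a median log2 fold change of -0.03 with TSA, beside a median of 0.03 over all tested genes.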

How the data were processed

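RNA-seq and ATAC-seq of mouse cardiomyocytes and RNA-seq of rat cardiomyocyte cultures were used, and 6 HiChIP libraries were not used here. The authors aligned RNA reads with HISAT2 2.1.0 and deposited StringTie transcript files (1.3.5 in the mouse headers) with FPKM, TPM and coverage (annotations mm10 and Rnor_6.0). They deposited MACS2 peak lists per ATAC-seq library with a score, a fold enrichment (ratio) and −log10 p- and q-values. Gene FPKM was summed over transcripts, and reads were estimated as coverage times length over 150 bp. Genes reaching an FPKM of 1 in 2 mouse or 3 rat libraries were fitted together on log2(FPKM + 1) with limma 3.58.1 (R 4.3.3), all 4 time points in 1 fit, and the method was tested on simulated data. Shares of transcripts were fitted after an arcsine square root transformation for transcripts of at least 5% of their gene. Peaks were merged with an overlap of at least 1 bp using Python 3.11.15.

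No label pairs the rat libraries. Same-numbered rat libraries deviated together (r = 0.224, 0.194 and 0.346), while r ran from -0.27 to 0.167 between differently numbered ones. Pairing by number is thus not established. It was used only beside the main fit, and a replicate block changed no call. Named by rule were all members, up to 3 called genes per direction and pathway list by size of change, the 2 most alike genes, transcripts of at least 10%, regions within 2.5 kb of a start and 6 regions with a MEF2 match. The members and lists were chosen with earlier results of these data known. Alternatives covered the pseudocount, filters, TPM, size factors, estimated reads, replicates left out, and peak thresholds, overlaps and windows. The summary of 1 pathway list is not reported here.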

Additional observations from a re-analysis of the deposited data

How the results depend on the processing

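The postnatal falls of Mef2c, Mef2d, Hdac5 and Hdac9 at P7 kept their direction in all settings, but that of Mef2d lost its call with TPM and without P7 replicate 2 and that of Hdac5 with protein-coding transcripts only, and of the alternative values of single genes 468 kept direction and side of the threshold, 13 gained a call, 8 lost one and 14 changed sign. With estimated reads (limma-voom) 2 members were called at P1 and 5 at P3. A mean FPKM of at least 5 removed Mef2c and Hdac9 from the fit and left 1 call at P3, 2 at P7 and 0 in P7 against P1. Protein-coding transcripts only, added after seeing the data, left 0 calls at P1 and 1 at P3. Leaving out 1 library gave 0 to 2 calls at P1 (2 without E18.5 replicate 1, 0 without E18.5 replicate 2 or P1 replicate 1), 0 to 1 called transcript shares at P1 and P3 (1 without either E18.5 replicate), and 0 to 2 at P7 (2 without either P3 replicate). Same-numbered mouse libraries did not all deviate together (r from -0.0964 to 0.171). A replicate block gave 1, 2 and 4 called members at the 3 time points, and 0 in the rat, the same counts as without it.

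Signs that changed belonged to values near 0: Mef2c at P1 with TPM (0.036), Mef2a at P1 with median-of-ratios size factors (-0.17), and with TSA Hdac9 by TPM (-0.055), size factors (-0.025) and voom (-0.0387) and Mef2c by voom (-0.026). Without 1 library Mef2a at P1 ran from -0.073 to 0.13, Mef2c at P1 from -0.35 to 0.033, and with TSA Hdac9 from -0.22 to 0.15, Mef2d from -0.15 to 0.015 and Mef2c from -0.075 to 0.18.

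Regions near the members numbered 28 with equal lists, 46 with the upper 0.5 of each list and 141 within 100 kb. Gained regions at P1 were 3 with the upper 0.5 of each list, 0 where a peak had to cover 50% of its region and 2 within 100 kb, and 1 to 16 without 1 library (3 without E18.5 replicate 2, 16 without P1 replicate 2). Lost regions at P1 were 5 with equal lists and 0 with the 50% rule, and 1 to 8 without 1 library (2 without E18.5 replicate 1, 6 without E18.5 replicate 2, 8 without P1 replicate 1). Gained regions at P3 were 4 with equal lists, 23 with the upper 0.5 and 80 within 100 kb, and 6 were lost with equal lists. Gained regions at P7 were 2 with equal lists and 8 with the upper 0.5, and 20 to 46 without 1 library (46 without P7 replicate 2), with 3 lost in equal lists and 0 to 1 without 1 library. Members with a promoter peak in every library of a time point were 4, 5, 7 and 8 from E18.5 to P7, 5 to 7 at E18.5 without 1 library (7 without E18.5 replicate 1), and with equal lists 2 at P1, 2 at P3 and 3 at P7, with 2 at P1 for the upper 0.5 and 3 for a promoter of 1 kb. Overlap, number of libraries and window cannot change the promoter counts and were not run for them. The cause of these differences was not tested. Peak lists give no reads, so their depth is unknown. Peak names begin with ZJ1110 in replicate 1 of E18.5, P3 and P7, and with ZJ1216 in E18.5 replicate 2 and both P1 libraries. They begin with ZJ1106 in P3 replicate 2 and with ZJ0119 in P7 replicate 2. No label states what these prefixes mean, and their part in the differences between ages was not tested.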
